A study of Homo sapiens with 5 samples.

Results

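Upstream exon poly(A) sites are places where an mRNA was cut and given its tail inside an exon that lies before the last exon of the transcript named for the site. The sites described here were those that the authors classed as upstream exon at their first listing, outside the mitochondrial chromosome, with 20 or more reads summed over the 5 libraries. They numbered 1074, in 832 genes, of 272173 distinct nuclear sites, of which 29509 had 20 or more reads. The sites were thus chosen by their class and their summed reads, so their read numbers, and what follows from the class, describe them and are not findings. The measure followed was each site's share of all reads of its gene.

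The libraries came from HEK293T cells, an established line derived from human embryonic kidney and kept here in 5% serum. There were 2 CFIm68 (gene CPSF6) knockout cell lines, 2 CFIm59 (gene CPSF7) knockout cell lines and 1 wild type control, the knockouts made with CRISPR/Cas9. The labels call the lines of a knockout separate cell lines and do not say whether each is 1 clone or which exon was edited. With 1 control library, the spread in every comparison with the control is that between the lines of each knockout, taken over both knockouts. In the fit it is also drawn toward the spread of the other sites tested.

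Most human genes end their mRNAs at more than 1 poly(A) site. A site in the last exon keeps the coding sequence and sets the length of the 3′ UTR, whereas a site in an intron or in an earlier exon removes the exons that follow. CFIm joins CFIm25 (gene NUDT21), which recognises UGUA in the RNA, with CFIm59 or CFIm68, whose arginine and serine rich domains recruit the cleavage machinery.

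Reads were primed from the tail with an oligo that ends in a run of 20 T, given below without its random bases and end group. It is shown because the reads were primed by this run of T. The capitals mark the run, and the pair of ggatcc sites is where BamHI reopens the circular cDNA.
Reverse transcription primer: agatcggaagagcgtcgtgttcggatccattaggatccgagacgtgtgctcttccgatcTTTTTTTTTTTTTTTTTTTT
An A-rich stretch inside an exon can anneal to the same run. A genome of the build of the sites, hg19, was not used here, so neither the poly(A) signal before a site nor the bases after it were read, and priming inside exons was not tested.

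The nuclear reads numbered 2508999 and 1953443 in the CFIm68 knockout lines, 1509856 and 2306252 in the CFIm59 knockout lines and 2659553 in the control. CPSF6, the gene targeted in the CFIm68 knockout, was at 56.2 and 53.3 CPM in the CFIm68 knockout lines, 163 and 165 CPM in the CFIm59 knockout lines and 134 CPM in the control. CPSF7 was at 150 and 238 CPM in the CFIm68 knockout lines, 79.0 and 64.4 CPM in the CFIm59 knockout lines and 66.8 CPM in the control, so its 3′ reads do not check that label. VIM, a marker of the line, had 582 to 1423 CPM in the libraries. Of the markers of other cell types, PECAM1, COL1A2 and HBB were at 0 in all libraries, whereas ALB, a liver gene, had 70 reads in the control and 0 or 1 in each knockout line. No marker of any of these lists had an upstream exon site with 20 or more reads, and what the ALB reads mean for the results was not tested.

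Upstream exon sites were minor sites in most genes. Their median share of the gene's reads over all libraries was 5.27% (quartiles 2.56 and 12%), beside 15.6% for the 4182 intron sites and 34.8% for the 24253 last exon sites with 20 or more reads. Their median read number was 40, against 37 at intron sites and 89 at last exon sites. In all, 110 held under 1% of their gene's reads, 405 held 1 to 5%, 232 held 5 to 10%, 227 held 10 to 25%, 55 held 25 to 50%, 26 held 50 to 90% and 19 held 90% or more. The site was the most read of its gene in 80 cases and the second in 333. Just inside the read minimum, 54 sites with 20 reads had a median share of 3.47%, and just outside it, 61 sites with 19 reads had one of 2.78%. The median was 2.39% at 21 reads and 2% at 18 reads. A further 12204 upstream exon sites had 1 to 19 reads and 3971 had none, so the 1074 sites carried 96500 of 140232 upstream exon reads, or 68.8%. Without the CFIm68 knockout lines 654 of the sites had 20 or more reads, and without the CFIm59 knockout lines 694. The others met the minimum only with the reads of that knockout, so a higher share there is in part set by the choice of sites.

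Nearly all of them lay before the main end of the gene. A last exon site with reads on the same strand was found for 1045, and 1029 of these (98.5%) stood upstream of the most read one, at a median distance of 17734 nt (quartiles 6256 and 37484). The 37 sites within 1000 nt had a median share of 0.886%, the 148 at 1000 to 4000 nt 4.21%, the 375 at 4000 to 20000 nt 4.64% and the 469 farther away 6.37%. The other 16 stood downstream of the most read last exon site, 5 of them in TMEM33, an endoplasmic reticulum membrane protein. The class depends on the transcript: 338 sites (31.5%) were listed again, with no reads, as last exon sites of another transcript of the gene, 30 were listed again under another gene, and 708 had a single listing. Of the 1011 named transcripts found by ID in GENCODE 29, 890 were protein coding, 52 were targets of nonsense-mediated decay and 33 were classed as retained intron.

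**Figure D1:**
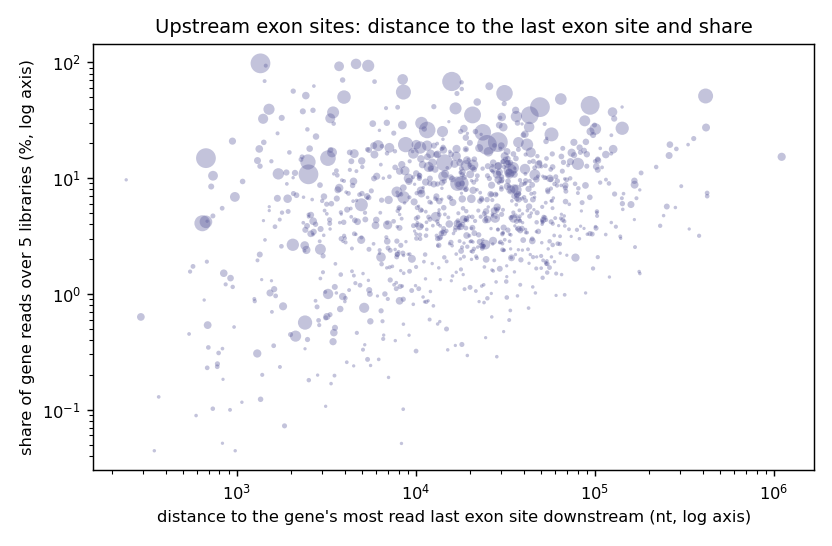
Each point is 1 of the upstream exon sites that stand upstream of the most read last exon site of their gene; the x axis gives the distance to that site in nt and the y axis the share of the gene's reads over 5 libraries in percent, both on log axes, with larger points for more reads. Median share is 0.886% within 1000 nt and 6.37% beyond 20000 nt.

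Sites with nearly all reads of a gene often belonged to entries that overlap another gene. The 19 sites with 90% or more of the reads included 11 that were also listed under another gene, beside 19 of the other 1055. The site with the second most reads, on chromosome 17 at 7482324 (plus strand), was filed under SNORA67, a small nucleolar RNA, with 828 and 789 reads in the CFIm68 knockout lines, 868 and 1486 in the CFIm59 knockout lines and 1652 in the control, all of that entry's reads. It stood 367 nt downstream of the most read last exon site of EIF4A1, the RNA helicase of translation initiation, and GENCODE 29 gives its transcript to another gene name, AC016876.2. RNASEK-C17orf49, a read-through of RNASEK and C17orf49, likewise held all 960 and 711 reads of its entry in the CFIm68 knockout lines, 479 and 719 in the CFIm59 knockout lines and 676 in the control at chromosome 17, 6917850, a site also listed under RNASEK. The level of the SNORA67 site fell in the CFIm68 knockout, to 337 and 408 CPM against 694 CPM in the control (log2 -0.90, adjusted p = 0.0049, or 0.117 without CFIm59 knockout line 1). For such entries a share says how the table was divided between gene names, and 26 sites with under 20 reads elsewhere in their gene were not tested for a change of share.

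Among genes with a usual last exon site, the most read upstream exon site was in EEF1A1, which carries tRNAs to the ribosome (chromosome 6, minus strand, 74229752, 2512 nt before the main end). It had 2119 and 937 reads in the CFIm68 knockout lines, 766 and 1652 in the CFIm59 knockout lines and 1695 in the control, or 13.0 and 8.27%, 10.9 and 12.4%, and 9.37% of the gene's reads. The CFIm68 knockout lines lay on both sides of all other libraries, and the site did not pass in any comparison (adjusted p of 0.688 to 0.819). EEF1A1 has many processed copies in the genome, so the placement of its reads is uncertain. RPL6, a protein of the large ribosomal subunit (chromosome 12, minus strand, 112843666), showed the same spread, with 17.5 and 11.8% in the CFIm68 knockout lines, 15.8 and 15.9% in the CFIm59 knockout lines and 13.6% in the control. ITGB3BP, a centromere protein gene (chromosome 1, minus strand, 63955758), ended 49317 nt before its main site in 40.2 and 43.0% of reads in the CFIm68 knockout lines, 34.4 and 39.8% in the CFIm59 knockout lines and 43.0% in the control. Its share did not pass, whereas its level was lower in the CFIm59 knockout, at 50.6 and 86.5 CPM against 152 CPM in the control (log2 -1.13, SE 0.28, adjusted p = 0.00197, but 0.313 without CFIm59 knockout line 1). DDX21, a nucleolar RNA helicase (chromosome 10, plus strand, 70719864), held 23.4 and 15.6% in the CFIm68 knockout lines, 19.8 and 16.9% in the CFIm59 knockout lines and 20.7% in the control. Its site fell in level in both knockouts, to 56.6 and 48.1 CPM in the CFIm68 knockout lines and 52.0 and 77.8 CPM in the CFIm59 knockout lines, against 131 CPM in the control (adjusted p of 0.000151 and 0.00864). Without CFIm59 knockout line 1 these level calls ended (adjusted p of 0.0768 and 0.344).

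RBBP4, a histone binding protein (chromosome 1, plus strand, 33117561), held 21.8 and 17.3% in the CFIm68 knockout lines, 23.7 and 23.2% in the CFIm59 knockout lines and 17.7% in the control, and did not pass (adjusted p of 0.386 to 0.803). CNPY2, a protein of the endoplasmic reticulum (chromosome 12, minus strand, 56704216), had its site 4064 nt downstream of the most read last exon site, at 66.1 and 72.5%, 70.5 and 77.5%, and 78.6%. MAPK12, a p38 kinase (chromosome 22, minus strand, 50691331), held 86.1 and 82.6% in the CFIm68 knockout lines, 93.8 and 92.9% in the CFIm59 knockout lines and 90% in the control. The MAPK12 share was called lower in the CFIm68 knockout than in the CFIm59 knockout (adjusted p = 0.039), but not without CFIm68 knockout line 2 (0.164) or CFIm59 knockout line 1 (0.148) or line 2 (0.183).

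A few genes held many upstream exon sites. Of the 832 genes, 664 had 1 site, 117 had 2, 35 had 3, 10 had 4, 5 had 5 and 1, ATRX, had 6. ATRX, a chromatin remodeller, had its 6 sites spread over 162462 nt of chromosome X, and together they held 54.2 and 55.5% of its reads in the CFIm68 knockout lines, 56.9 and 55.2% in the CFIm59 knockout lines and 58.6% in the control. The summed share thus lay within a few points in all libraries, and most of it came from 1 site at 76855203, with 40.4 and 42.7%, 43.1 and 41.8%, and 44.7%. CEP290, a protein of the ciliary transition zone, had 5 sites that together held 53.5 and 47.8% in the CFIm68 knockout lines, 50.9 and 57.5% in the CFIm59 knockout lines and 59.7% in the control. The 5 sites of CENPE and of CENPF, kinetochore proteins, and of HSP90AA1, a heat shock chaperone, summed to 15.0, 19.9 and 5.00% of the genes' reads over all libraries.

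As a class these sites took 0.981 and 0.767% of nuclear reads in the CFIm68 knockout lines, 0.884 and 0.860% in the CFIm59 knockout lines and 0.892% in the control (exact binomial 95% interval 0.881 to 0.904, counting error only). The control lay between the CFIm68 knockout lines and just above the CFIm59 knockout lines. No test of this value was made, since the smallest p that an exact two-sided permutation test allows here is 0.333. The median share of a site was 5.76 and 4.06% in the CFIm68 knockout lines, 5.13 and 5.00% in the CFIm59 knockout lines and 4.83% in the control. CFIm68 knockout line 1 was thus the highest and line 2 the lowest library: the share was higher in line 1 than in line 2 at 785 of 1048 tested sites (74.9%), beside 47.9% of 3449 intron sites. Between CFIm59 knockout lines 1 and 2 the figures were 52.9% and 48.7%. In share of nuclear reads the lines of each knockout differed by more than their mean differed from the control, and the cause was not tested.

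**Figure D2:**
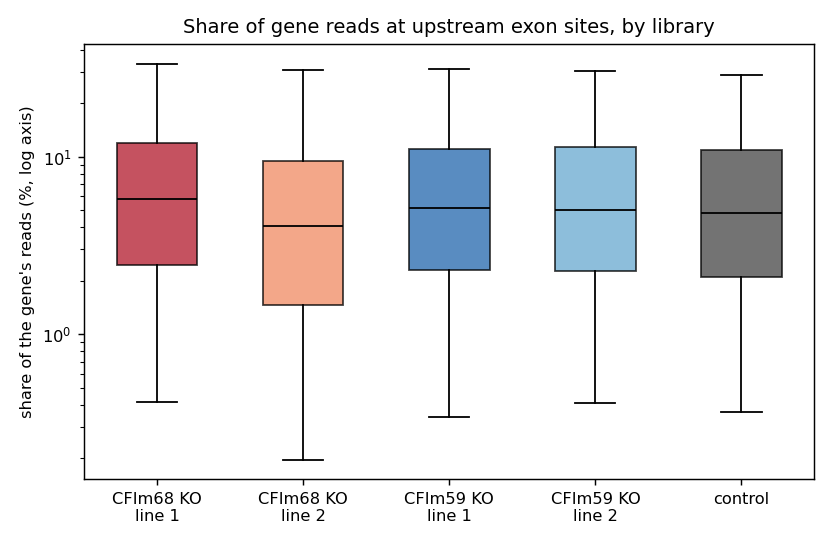
Share of the gene's reads at the 1048 tested upstream exon sites (y axis, percent, log axis) in each library (x axis); boxes give the quartiles and median, whiskers the range from percentile 5 to 95. CFIm68 knockout line 1 has the highest median, 5.76%, and line 2 the lowest, 4.06%, with the CFIm59 knockout lines and the control between them.

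The CFIm68 knockout was set against the control to ask whether loss of CFIm68 changes the share of these sites. Few changed: 12 had a higher share and 9 a lower one of 1048, or 2.00%, where 19.8% of all 24915 tested sites changed, 9.41% higher and 10.4% lower. A share can move because the site or because the rest of the gene moved. A change is of the odds of the site against the rest of its gene, by the quasi-likelihood test of edgeR, with p-values adjusted by Benjamini and Hochberg over all sites and a threshold of 0.05. Intron sites changed in 12.1% and last exon sites in 22.1% of cases. The gap was there in each range of reads: with 20 to 49 reads, 1.7% of upstream exon sites changed, 9.07% of intron sites and 16.2% of last exon sites. With 100 or more reads the figures were 4.38, 20 and 25.4%. That range has no upper end, and the classes were not matched by share. The median log2 change was -0.04 over upstream exon sites and -0.05 over all sites.

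**Figure D3:**
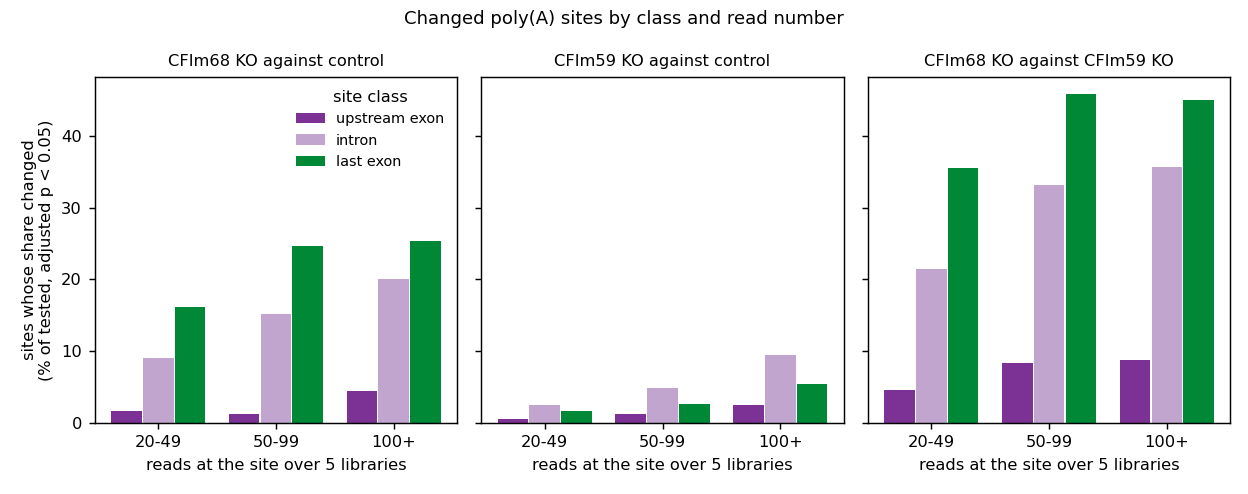
Percent of tested sites whose share changed (y axis, adjusted p under 0.05) by site class and by reads at the site over 5 libraries (x axis), in 3 comparisons, 1 panel each. In every comparison and read range the upstream exon bars are the lowest, at 8.75% with 100 or more reads between the knockouts, where last exon sites reach 45.0%.

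The clearest rise was in CHRNA5, a subunit of nicotinic acetylcholine receptors (chromosome 15, plus strand, 78882593, 3324 nt before its main last exon site). The site had 50 of 95 and 54 of 92 reads in the CFIm68 knockout lines, 18 of 80 and 28 of 155 in the CFIm59 knockout lines and 33 of 134 in the control. That is 52.6 and 58.7%, 22.5 and 18.1%, and 24.6% (Wilson 95% interval 18.1 to 32.6), so both CFIm68 knockout lines lay above every other library. The share rose in the CFIm68 knockout to 55.7 ± 4.29% (SD, n = 2), with log2 1.94 (SE 0.47, adjusted p = 0.000395) against the control. An intron site of the gene at 78883964 held 5.26 and 5.43% in the CFIm68 knockout lines, 30 and 25.8% in the CFIm59 knockout lines and 16.4% in the control. The CHRNA5 call held without any 1 knockout line, but not with DESeq2 (adjusted p = 0.114) or with a gene-wise edgeR test (0.168).

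CREB5, a transcription factor (chromosome 7, plus strand, 28450376, 415133 nt before its main end), also rose, with 65.5 and 51.5% in the CFIm68 knockout lines, 51.1 and 46.5% in the CFIm59 knockout lines and 41.0% in the control (log2 1.10, adjusted p = 0.0354). Line 1 was the higher of the pair, and without it the adjusted p was 0.411. KDM5B, a histone demethylase (chromosome 1, minus strand, 202733182), reached 10.1 and 7.26% in the CFIm68 knockout lines and 8.18 and 9.57% in the CFIm59 knockout lines, against 2.16% in the control (5 of 232 reads). It passed in the CFIm68 knockout (log2 2.12, adjusted p = 0.0184, or 0.151 without CFIm68 knockout line 1) and not in the CFIm59 knockout (adjusted p = 0.0634). FAM60A, a subunit of a histone deacetylase complex (chromosome 12, minus strand, 31446818), had 5 of 152 and 7 of 111 reads in the CFIm68 knockout lines, 5 of 134 and 12 of 158 in the CFIm59 knockout lines and 0 of 167 in the control, which allows a share of up to 1.80%. It passed in both (adjusted p of 0.00928 and 0.0143), and those results share the 1 control library. The other named rises were in CTD-2116N17.1, ANKZF1, SRSF5, TOR1AIP2, UTRN and HAUS6, with adjusted p of 0.0143 to 0.0461.

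Of the sites that fell, NAA15, a subunit of the N-terminal acetyltransferase NatA (chromosome 4, plus strand, 140291434), had 44 of 393 and 25 of 348 reads in the CFIm68 knockout lines, 29 of 218 and 46 of 342 in the CFIm59 knockout lines and 60 of 285 in the control. The shares were 11.2 and 7.18%, 13.3 and 13.5%, and 21.1% (16.7 to 26.2), with the control above all knockout lines. The fall in the CFIm68 knockout was log2 -1.39 (SE 0.42, adjusted p = 0.00873), and it held without any 1 knockout line but not with DESeq2 (0.249). QSER1 (chromosome 11, plus strand, 32979543) fell to 15.3 and 19.4% in the CFIm68 knockout lines, against 37.1% in the control, on 23 of 62 control reads (log2 -1.49, adjusted p = 0.0384, or 0.141 without CFIm68 knockout line 1). The other falls were in TRMT1L, ZC3H13, PAXBP1, RBM25 and HELLS and at 2 sites of TMEM33. Apart from CHRNA5 and NAA15, each of the changed sites in genes named here lost its call without 1 or more of the knockout lines.

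These counts depended on single libraries. They were 6 higher and 10 lower without CFIm68 knockout line 1, 23 and 6 without line 2, and 3 and 2 without either CFIm59 knockout line, which enter through the shared spread. DESeq2 called 0 and 0, with 16 sites at an unadjusted p under 0.05, where edgeR had 79. As a level, in reads per library size, 8 sites rose and 11 fell of 1074 (over all 29509 sites 13.7%, 6.85% higher and 6.84% lower). In both share and level 3 sites rose and 0 fell, and the sites of CHRNA5 and NAA15 did not pass in level.

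The CFIm59 knockout was set against the control for the same question. Here 6 sites had a higher share and 4 a lower one of 1048, or 0.954%, where 3.50% of all tested sites changed, 1.39% higher and 2.11% lower. In both share and level 5 sites rose and 3 fell. Intron sites changed in 4.12% and last exon sites in 3.53% of cases. The median log2 change was 0.09 over upstream exon sites and -0.05 over all sites.

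The rise with the most points was in AC012146.7, an antisense RNA gene in GENCODE 29 (chromosome 17, plus strand, 5016730, 945 nt before its last exon site). It held 18 of 63 and 57 of 146 reads in the CFIm59 knockout lines, 5 of 95 and 8 of 68 in the CFIm68 knockout lines and 7 of 82 in the control. Its share rose to 28.6 and 39.0% in the CFIm59 knockout lines, against 8.54% in the control (4.2 to 16.6; log2 2.52, SE 0.69, adjusted p = 0.0045), above every other library. Its level rose too, to 12.5 and 27.4 CPM in the CFIm59 knockout lines, against 2.94 CPM in the control (adjusted p = 0.000242), but not without CFIm59 knockout line 1 (0.222) or line 2 (0.0912) or with DESeq2 (0.0824). Reads of an antisense gene and its partner cannot be told apart unless strand is kept, which the sources used here do not state for the counting. MGEA5, the enzyme that removes O-linked N-acetylglucosamine (chromosome 10, minus strand, 103559051), had 51 of 369 and 96 of 662 reads in the CFIm59 knockout lines and 75 of 1385 in the control. Its share of 13.8 and 14.5% in the CFIm59 knockout lines stood above 5.42% in the control (4.34 to 6.74; log2 1.53, SE 0.39, adjusted p = 0.00617) and above 10.6 and 6.98% in the CFIm68 knockout lines. NCAPD3, a condensin subunit, SAFB, a nuclear scaffold protein, FAM60A and ANKHD1 also rose, SAFB with 0 of 107 control reads, which allows up to 2.80%. All 22 reads of the SAFB site came from knockout lines, so its rise is in part set by the choice of sites.

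SRSF5, an SR splicing protein, fell most clearly. Its site (chromosome 14, plus strand, 70236225, 2496 nt before the main last exon site, in a transcript classed as retained intron) had 6 of 370 and 20 of 496 reads in the CFIm59 knockout lines, 179 of 846 and 138 of 678 in the CFIm68 knockout lines and 88 of 739 in the control. The share fell to 1.62 and 4.03% in the CFIm59 knockout lines, against 11.9% in the control (9.77 to 14.4; log2 -2.14, SE 0.47, adjusted p = 0.000436). SMIM13, a small integral membrane protein (chromosome 6, plus strand, 11134997), fell to 17.2 and 28.1% in the CFIm59 knockout lines, against 48.2% in the control (40 to 56.5; log2 -1.59, adjusted p = 0.0304). RSL1D1, a nucleolar protein, fell to 2.46 and 2.25% in the CFIm59 knockout lines, against 8.21% in the control, with 5.6 and 2.37% in the CFIm68 knockout lines. The remaining fall was in RP11-29G8.3, outside the naming rule and added after its values were seen, at 64.5 and 58.7% in the CFIm59 knockout lines, 84.8 and 78.6% in the CFIm68 knockout lines and 87.5% in the control (adjusted p = 0.0288).

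No share call of this comparison held without CFIm59 knockout line 1 or without line 2, where edgeR gave 0 and 0 with 59 and 47 sites at an unadjusted p under 0.05; for SRSF5 the adjusted p was then 0.218 and 0.0992, for AC012146.7 0.124 and 0.356, and for MGEA5 0.218 and 0.333. DESeq2 also gave 0 and 0, with 26 sites at an unadjusted p under 0.05, where edgeR had 88. As a level, 15 sites rose and 20 fell of 1074 (over all sites 9.65%, 4.28% higher and 5.37% lower), and none of these calls held without CFIm59 knockout line 1, where edgeR gave 0 and 0 with 78 sites at an unadjusted p under 0.05, whereas 7 and 17 sites passed without line 2.

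Between the knockouts more sites differed. The share was higher in the CFIm68 knockout than in the CFIm59 knockout at 36 sites in 35 genes and lower at 28 sites in 26 genes, or 6.11% of 1048, where 38.2% of all tested sites differed, 19.7% higher and 18.6% lower. Intron sites differed in 26.0% and last exon sites in 41.9% of cases. The difference had a median of 12.1 points at the higher sites, from 0.65 to 38.3, and of -8.12 points at the lower ones, from -33.9 to -0.927.

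**Figure D4:**
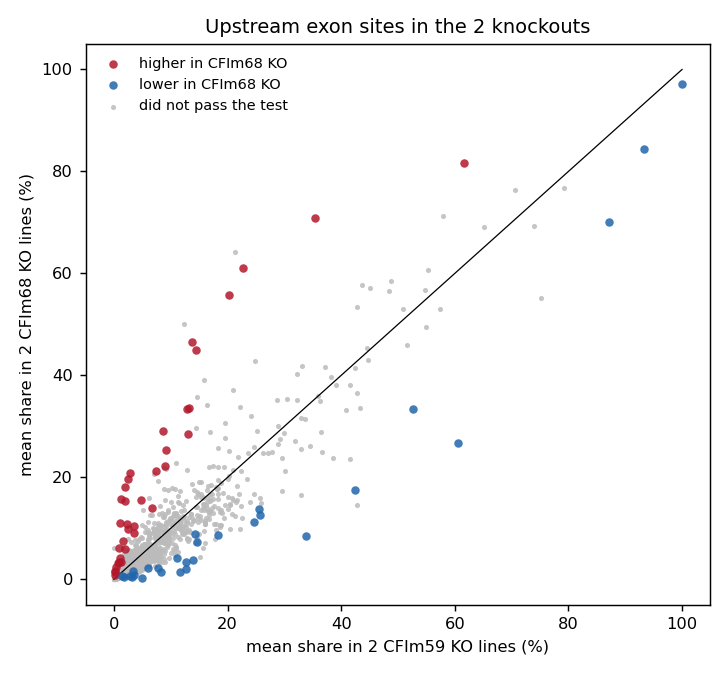
Mean share of the gene's reads in the 2 CFIm68 knockout lines (y axis, percent) against that in the 2 CFIm59 knockout lines (x axis, percent) for the 1048 tested upstream exon sites. The 36 sites higher and the 28 lower in the CFIm68 knockout lie on either side of the line of equal shares, which most other sites follow.

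SRSF5 differed with the smallest p of all upstream exon sites. Its 21.2 and 20.4% in the CFIm68 knockout lines stood against 1.62 and 4.03% in the CFIm59 knockout lines (log2 3.10, SE 0.41, adjusted p = 4.91e-15), with the control between at 11.9%. The level differed as well, at 72.9 and 71.4 CPM in the CFIm68 knockout lines and 4.16 and 9.61 CPM in the CFIm59 knockout lines, against 36.9 CPM in the control (log2 3.30 between the knockouts, adjusted p = 6.23e-18). In the last exon of SRSF5 the nearer site at 70238387 held 46.6 and 43.4% in the CFIm68 knockout lines, 34.1 and 35.7% in the CFIm59 knockout lines and 38.0% in the control. The farther one at 70238721 held 29.7 and 34.4%, 60.8 and 57.1%, and 46.7%. The upstream exon site and the nearer last exon site were thus used more, and the farthest less, in the CFIm68 knockout lines than in the CFIm59 knockout lines, with the control between at all 3. Another upstream exon site of the gene at 70237773 stayed at 1.81% or less in every library.

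Of the sites that passed, SMIM13 differed by the most points, with 57.1 and 64.9% in the CFIm68 knockout lines, 17.2 and 28.1% in the CFIm59 knockout lines and 48.2% in the control (log2 2.34, SE 0.40, adjusted p = 3.17e-08). The site is also listed as a last exon site of another transcript, and the gene's far last exon site at 11138964 held 11 and 8.25%, 75.9 and 51.7%, and 39.4%. CHRNA5 differed by log2 2.34 (SE 0.40, adjusted p = 4.86e-08), and there the control, at 24.6%, stood near the CFIm59 knockout lines. CAMSAP2, a protein of microtubule minus ends (chromosome 1, plus strand, 200819330), had 21 of 121 and 17 of 90 reads in the CFIm68 knockout lines, 1 of 78 and 3 of 116 in the CFIm59 knockout lines and 12 of 108 in the control. Its shares of 17.4 and 18.9%, 1.28 and 2.59%, and 11.1% did not overlap (log2 3.31, SE 0.83, adjusted p = 5.15e-06). TMEM120B, a nuclear envelope membrane protein (chromosome 12, plus strand, 122214159), held 28.6 and 29.5% in the CFIm68 knockout lines, 6.94 and 10.4% in the CFIm59 knockout lines and 16.2% in the control (log2 2.05, SE 0.52, adjusted p = 0.000171). CTD-2116N17.1, whose site is also listed under KIAA0101, held 54.9 and 38.2%, 11 and 16.7%, and 21.6% (log2 2.44, SE 0.49, adjusted p = 3.88e-06), with no difference in level past the threshold (adjusted p = 0.964). The 4 other named sites higher in the CFIm68 knockout were in CLDN12, a claudin of tight junctions, SEC14L1, EZH1, a histone H3 lysine methyltransferase of the Polycomb complex, and SKA3, a kinetochore protein. EZH1 held 17.9 and 21.4% in the CFIm68 knockout lines, 3.33 and 1.69% in the CFIm59 knockout lines and 9.86% in the control, on 1 read in each CFIm59 knockout line. Without CFIm59 knockout line 2 the calls of EZH1, SEC14L1 and SKA3 ended (adjusted p of 0.105, 0.277 and 0.299), and without CFIm68 knockout line 1 those of SEC14L1 and SKA3 (0.0711 and 0.474).

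The sites lower in the CFIm68 knockout were led by AC012146.7, at 5.26 and 11.8% in the CFIm68 knockout lines, 28.6 and 39.0% in the CFIm59 knockout lines and 8.54% in the control (log2 -2.61, SE 0.54, adjusted p = 1.09e-06). CASK, a scaffold protein of synapses and cell junctions (chromosome X, minus strand, 41390435), had 6 of 330 and 2 of 218 reads in the CFIm68 knockout lines, 11 of 91 and 17 of 151 in the CFIm59 knockout lines and 8 of 207 in the control. Its shares of 1.82 and 0.917%, 12.1 and 11.3%, and 3.86% gave log2 -3.12 (SE 0.66, adjusted p = 1.71e-06). In CASK an intron site at 41534081 held the bulk of the reads in the CFIm68 knockout lines, 68.2 and 68.8%, with 18.7 and 29.1% in the CFIm59 knockout lines and 41.1% in the control.

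TMEM33 shows what the class can hold. Its 5 upstream exon sites lay within 2565 nt of each other on chromosome 4, all downstream of the most read last exon site at 41956471 and all upstream of the last exon sites from 41962509 on, and the sites are also listed as last exon sites. Together they held 5.24 and 6.97% of the gene's reads in the CFIm68 knockout lines, 30.3 and 26.2% in the CFIm59 knockout lines and 19.4% in the control. The first last exon site at 41956471 held 72.7 and 61.2%, 4.92 and 4.71%, and 14.3%. Of the 5 sites, 3 were lower in the CFIm68 knockout than in the CFIm59 knockout. The site at 41957823 stood at 1.5 and 2.49% in the CFIm68 knockout lines, 14.8 and 10.5% in the CFIm59 knockout lines and 5.16% in the control (log2 -2.80, SE 0.62, adjusted p = 4.08e-06). The sites at 41959995, with 1 and 0 reads in the CFIm68 knockout lines and 7 and 8 in the CFIm59 knockout lines (adjusted p = 0.00012), and at 41957430, with 1 and 1 against 4 and 6 (0.0129), also passed. The call at 41957430 was lost without CFIm68 knockout line 1 (0.0937) and without CFIm59 knockout line 1 (0.0594) or line 2 (0.0911). In TMEM33 a read at such a site therefore marks an end beyond the main one of the CFIm68 knockout lines, not before it.

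TMEM50B, a membrane protein of the endoplasmic reticulum and Golgi, had sites whose shares differed in opposite directions. Shares within a gene are tied, so a higher share at 1 site lowers those of the others. The site on chromosome 21 at 34821448 (minus strand) held 31.8 and 34.9% in the CFIm68 knockout lines, 55.7 and 49.7% in the CFIm59 knockout lines and 35.1% in the control (log2 -1.12, SE 0.36, adjusted p = 0.00654, or 0.0909 without CFIm59 knockout line 1). The site at 34822907, 18114 nt before the last exon site, held 10.4 and 20.2%, 2.53 and 1.31%, and 9.27% (log2 3.23, SE 0.83, adjusted p = 6.53e-06), and was singled out after its values were seen. Only this site also passed in level (log2 3.04, adjusted p = 8.21e-05). The share call at 34821448 was also lost with DESeq2, with the gene-wise edgeR test and against last exon sites only. A last exon site at 34804793 held 39.6 and 32.6%, 32.9 and 39.9%, and 43.0%, where the libraries of the knockouts overlapped. The other named lower sites were in RPL17-C18orf32, WDR59, SNX8, MGARP, CHIC2 and PLEKHA5, with adjusted p of 0.0195 to 0.0444, and all lost the call without 1 or more of the knockout lines.

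**Figure D5:**
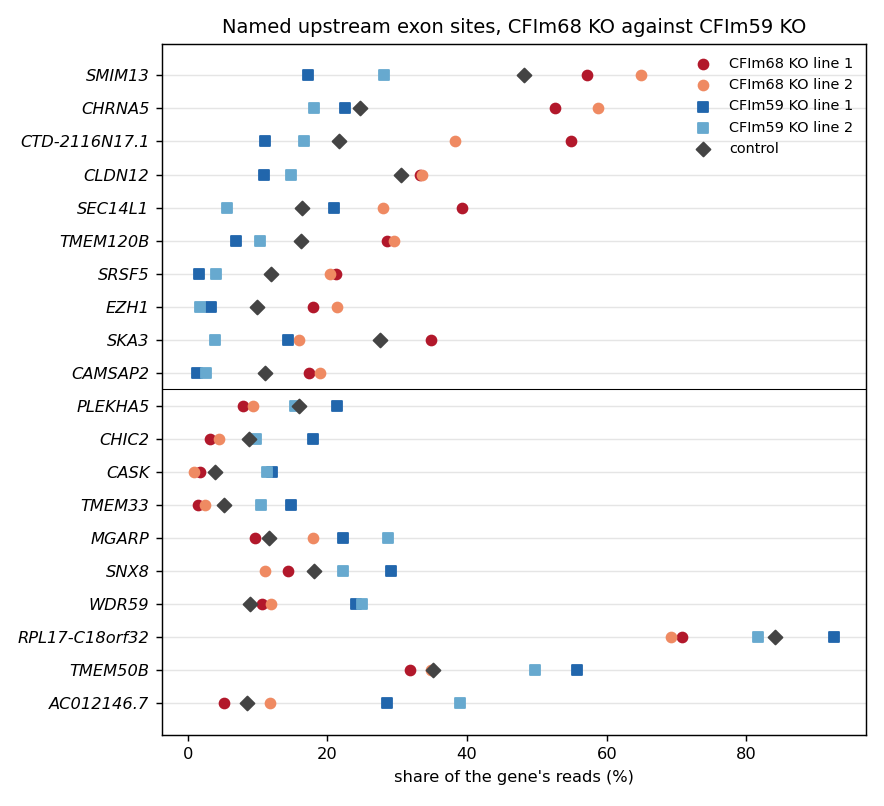
Share of the gene's reads (x axis, percent) in each library for the 20 named upstream exon sites that differed between the knockouts, 1 gene a row; circles are CFIm68 knockout lines, squares CFIm59 knockout lines and diamonds the control. Above the line both CFIm68 knockout lines exceed both CFIm59 knockout lines, below it they fall short, with the widest gap, 38.3 points, in SMIM13.

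METTL12, a methyltransferase gene (chromosome 11, plus strand, 62433180), shows level and share apart. The site held 98.7 and 95.7% of the gene's reads in the CFIm68 knockout lines, 100% in both CFIm59 knockout lines and 99.1% in the control, so nearly every METTL12 read was at this site; the share was called lower in the CFIm68 knockout than in the CFIm59 knockout (adjusted p = 0.00518), but not without CFIm68 knockout line 2 (0.079) or CFIm59 knockout line 1 (0.0668) or line 2 (0.322). Its level was 220 and 229 CPM in the CFIm68 knockout lines, 38.8 and 91.3 CPM in the CFIm59 knockout lines and 183 CPM in the control. The level fell in the CFIm59 knockout against the control (log2 -1.47, SE 0.28, adjusted p = 1.82e-05, or 0.264 without CFIm59 knockout line 1) and was higher in the CFIm68 knockout than in the CFIm59 knockout (log2 1.76, SE 0.23, adjusted p = 5.63e-11). Over all 1074 sites the level was higher in the CFIm68 knockout than in the CFIm59 knockout at 42 and lower at 44 (over all sites 33.7%, 17.8% higher and 15.9% lower). Of the sites with a higher share 23 had a higher level too, of those with a lower share 9 had a lower level, and 2 sites were called in opposite directions.

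Single libraries again weighed on the counts between the knockouts. Without CFIm59 knockout line 2 there were 14 higher and 8 lower sites, without line 1 24 and 8, without CFIm68 knockout line 1 22 and 32, and without line 2 43 and 18, whereas leaving out the control gave 36 and 28. DESeq2 called 11 and 7. The share calls of SRSF5, SMIM13, CHRNA5, CAMSAP2, TMEM120B, CTD-2116N17.1, AC012146.7, CASK and the TMEM33 site at 41957823 between the knockouts held in every alternative in which the site entered the test. None of the alternatives chose the sites without the reads of the knockout where they were high, on which CAMSAP2 and CASK depend to meet the minimum. The same holds for other called sites, among them those of EZH1 and EIF4A1, TMEM50B at 34822907, and TMEM33 at 41957430 and 41959995. For all of these the difference is in part set by the choice of sites.

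Sites that differed between the knockouts were also counted by distance, listing and share. Of those within 1000 nt of the main end, 1 was higher and 3 lower of 37, at 1000 to 4000 nt 10 and 2 of 144, at 4000 to 20000 nt 11 and 8 of 371, and beyond 12 and 10 of 469. Sites also listed as last exon sites of another transcript differed in 7.10% of 338 cases and the others in 5.63% of 710, whereas the order was the other way in the CFIm68 knockout against the control (1.18 and 2.39%) and in the CFIm59 knockout against the control (0.888 and 0.986%). By share, 22 of 515 sites under 5% differed, 30 of 459 at 5 to 25% and 12 of 74 above. No test was made of these splits.

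Each gene list held few upstream exon sites, so counts of 0 or 1 say little beside the 2.00, 0.954 and 6.11% of all upstream exon sites that passed in the CFIm68, the CFIm59 and the between-knockout comparison. The CFIm subunits, the cholesterol synthesis genes and the tubulin and actin genes had no upstream exon site with 20 reads. Of the other cleavage and polyadenylation factors, CSTF3, a cleavage stimulation factor subunit, had 1 site, at 3.67 and 0.806% in the CFIm68 knockout lines, 2.60 and 3.68% in the CFIm59 knockout lines and 3.38% in the control. The SR proteins had 7 sites in 4 of 14 genes, and only that of SRSF5 passed in any comparison. SRSF11 had its most read one at 14.9 and 13.4% in the CFIm68 knockout lines, 13.4 and 15.3% in the CFIm59 knockout lines and 11.4% in the control. None of 7 sites in 5 hnRNP genes passed in any comparison. Of 5 sites in core spliceosome genes, 1 rose in the CFIm68 knockout, in SF3B2, a U2 snRNP protein, at 5.48 and 3.13% in the CFIm68 knockout lines against 1.59% in the control (log2 1.49, adjusted p = 0.0441, or 0.328 without CFIm68 knockout line 1).

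Translation factors had 24 sites in 14 of 36 genes, with a site of EIF4A1 that is also listed under SNORA67 alone lower in the CFIm68 knockout than in the CFIm59 knockout, at 0.402 and 0.737% against 2.09 and 3.68%, with 1.62% in the control (log2 -2.43, adjusted p = 0.00302). These shares leave out the reads filed under SNORA67, 367 nt past the most read last exon site of EIF4A1. Heat shock chaperones had 23 sites in 12 of 23 genes, with HSPA4 alone lower, at 1.30 and 0.502% in the CFIm68 knockout lines, 3.88 and 3.15% in the CFIm59 knockout lines and 1.29% in the control (log2 -1.98, adjusted p = 0.00317). Cytosolic ribosomal proteins had the most sites, 32 in 23 of 83 genes, but at a median share of 0.242%, and none passed. None passed among 6 sites of 4 cell cycle genes, with TOP2A and MKI67, or at the 1 glycolysis site, in ENO1. Zinc finger genes, the largest list with 428 genes, had 10 sites in 9 genes, at a median share of 13.4%, and none of the 9 tested passed.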

How the data were processed

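Per the labels' protocols, poly(A) sites were read from 10 µg of RNA by priming on the tail, circularizing 120 to 200 nt cDNA and sequencing. The authors deposited 1 table of raw read counts per poly(A) site, library and listed transcript; hg19, TopHat2 2.1.0 and deepTools 2.4 are named in the submitters' processing notes, with no roles. How sites were called and internal priming handled, and whether positions count from 0 or 1, was not stated in the sources used here. Total reads per library were 1673687 to 2924266, with no molecular identifiers, so intervals and the floor of 3 reads cover counting error only.

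The first listing of each nuclear site was kept, which fixes its class. The share test was edgeR 4.0.16 (R 4.3.3), a quasi-likelihood fit of site against rest-of-gene counts with a term per library, over 24915 sites with 20 or more reads and 20 or more in the rest of the gene. The level test used TMM and 29509 sites; CPM are per TMM library size. All 5 libraries shared 1 fit, and the lone control was taken to vary like the knockout lines. P-values set each difference against the spread between the lines of a knockout, taken over both knockouts. The edgeR fit draws this spread toward that of the other sites fitted. With so few lines, small p-values thus rest in part on the spread of other sites. They were adjusted by Benjamini-Hochberg over all sites at 0.05. Shares carry Wilson or exact binomial 95% intervals. Both tests were tested on simulated data. Transcript types were matched by ID to GENCODE 29.

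Named were the 10 sites with most reads; the 6 with the highest mean share in genes with 250 or more reads; per share comparison, up to 10 higher and 10 lower sites by percentage points, among called sites of such genes whose groups do not overlap; and up to 3 sites per gene list. Symbols starting LOC, LINC, MIR, SNOR, RNU, RNA or RP with digits, or holding -AS, were left out of the parts on share and on comparisons. Members and lists were chosen with earlier results of these data known. Splits by read range, by share, by distance and by a second listing as last exon, the counts of line 1 over line 2, the sites of other classes in named genes, and the count of sites also listed under another gene were chosen after values were seen. Alternatives were DESeq2 1.42.0, a gene-wise edgeR test (diffSpliceDGE), other read minimums, other denominators, other size factors, each library left out and a replicate block.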

Additional observations from a re-analysis of the deposited data

How the results depend on the processing

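Leaving out sites that make priming inside exons likely was not run, since it needs the hg19 genome. No named site changed sign. The balance of higher and lower counts did turn in several settings, listed with the others here. Counts of changed upstream exon sites, higher and lower, moved as follows. For the share, CFIm68 knockout against control (12 and 9), DESeq2 gave 0 and 0 (16 sites at an unadjusted p under 0.05), the gene-wise edgeR test 3 and 4, a minimum of 50 reads 7 and 4, a rest of gene of 1 read 5 lower, and leaving out 1 library 3 to 23 and 2 to 10. For the CFIm59 knockout against control (6 and 4), DESeq2 gave 0 and 0 (26 unadjusted), the gene-wise test 1 and 1, 50 reads 3 higher, leaving out sites also listed as last exon 2 lower, and leaving out 1 library 0 to 8 and 0 to 9. Between CFIm68 and CFIm59 knockouts (36 and 28), DESeq2 gave 11 and 7, 50 reads 19 and 18, leaving out sites also listed as last exon 20 and 17, and leaving out 1 library 14 to 43 and 8 to 32.

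For the level, CFIm68 knockout against control (8 and 11), DESeq2 gave 0 and 2 (7 unadjusted), a minimum of 1 read 1 and 3, 50 reads 5 lower, and leaving out 1 library 0 to 9 and 0 to 24, the 0 without CFIm59 knockout line 1 (62 unadjusted, edgeR). For the CFIm59 knockout against control (15 and 20), DESeq2 gave 0 and 4 (29 unadjusted), 1 read 3 higher, 50 reads 7 higher, and leaving out 1 library 0 to 20 and 0 to 24, the 0 again without CFIm59 knockout line 1 (78 unadjusted, edgeR). Between the knockouts (42 and 44), DESeq2 gave 9 and 6, 1 read 19 and 13, 50 reads 23 and 19, and leaving out 1 library 8 to 43 and 4 to 45. The causes were not tested; fewer sites are tested at 50 reads or with listings left out.

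As a share of nuclear reads the class took 0.874% in the CFIm68 knockout, 0.872% in the CFIm59 knockout and 0.892% in the control; with all upstream exon sites 1.28, 1.28 and 1.26%, without the 10 most read 0.642, 0.643 and 0.643%, and without sites listed under more than 1 gene 0.826, 0.844 and 0.863%. The knockouts thus stood below the control except with all upstream exon sites, where they stood above it, and without the 10 most read, where the values were nearly equal. Line numbers are only names: deviations of same-numbered lines correlated at 0.00167 over 29509 sites. With the number as a replicate block the share gave 36 and 27 and the level 33 and 40 between the knockouts. The median site had 40 reads over 5 libraries, which limits the precision of its share.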
